A study of Rattus norvegicus with 18 samples.

Results

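The response of rat nucleus pulposus cells to Phen-DC3 was compared with their response to Braco-19, each compound being set against its own controls, in 12 of the 18 libraries of an RNA-seq series. Nucleus pulposus cells are the cells of the soft core of the intervertebral disc. They were taken from 8-week-old Sprague Dawley rats, plated for 24 h and treated for 24 h. The 4 groups, with 3 libraries each, were cells given Phen-DC3, the controls of Phen-DC3, cells given Braco-19, and controls whose titles name no compound, which were set against Braco-19 by elimination. The labels name no genetic change in any group and give no dose, nor what the control cells received. The submitters call the 3 libraries of a group biological repeats without saying whether they came from separate animals, so the tests measure the spread between these libraries. The compounds were matched in time but cannot be matched in dose, and 1 pair of compounds was compared.

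Phen-DC3 is a phenanthroline dicarboxamide with a quinolinium at each end, and Braco-19 is a trisubstituted acridine. Both bind and stabilise G-quadruplexes, stacked structures that form in guanine-rich DNA or RNA, at telomeres and in many promoters among other places. Phen-DC3 stacks on the outer face of the structure, and Braco-19 was developed as a ligand of telomeric quadruplexes. A quadruplex held in place can slow polymerases and can shift transcription of the genes around it.

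The measure throughout is a difference of differences on the log2 scale, the Phen-DC3 effect (treated over its controls) minus the Braco-19 effect (treated over its controls). A positive value means a higher response to Phen-DC3 than to Braco-19. Each value came from edgeR's quasi-likelihood test over 14184 genes, with Benjamini-Hochberg adjusted p-values and a threshold of 0.05. Levels are given as CPM, the count of a gene scaled to a common library size, with TMM factors. Levels of different genes are not compared, since CPM is not per length. Gene length throughout is the length given for the gene in the deposited table, which is not its genomic span.

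Libraries held 15715121 to 18369443 counts. The control groups themselves differed widely: 9860 genes (69.5%) passed the test between the controls of Phen-DC3 and the controls of Braco-19. Genes longer than 5000 bp took 7.99 ± 0.52% of the counts in Phen-DC3 libraries and 9.99 ± 0.74% in their controls, against 24.2 ± 0.95% in Braco-19 libraries and 25.3 ± 0.18% in theirs (SD, n = 3 each). The compound and the experiment in which it was given therefore cannot be told apart, and only effects within an experiment are compared. The median SD of log2 CPM within a group was 0.121 and 0.141 in Phen-DC3 libraries and their controls, against 0.0975 and 0.0939 in Braco-19 libraries and their controls. Of the 11 nucleus pulposus markers, Krt19 and Tbxt were at 0 in all 12 libraries, Krt18 stayed below 0.112 CPM and Acan averaged 0.22, 0.14, 1.74 and 2.85 CPM in Phen-DC3 cells, their controls, Braco-19 cells and their controls, and Ca12 lay between 0.187 and 1.13 CPM. Pax1 (73.7 to 116 CPM), Foxf1 (33.7 to 48.0 CPM), Cd24 (11.4 to 43.0 CPM), Krt8 (6.24 to 16.9 CPM), Col2a1 (14.2 to 24.4 CPM) and Sox9 (4.94 to 20.8 CPM) were detected throughout. Col1a2, also chosen as a fibroblast-like marker, has no value here. The other 5 fibroblast-like markers (Col1a1, Dcn, Lum, Pdgfra and Thy1) were present in every library, with Col1a1 at 1037 to 5964 CPM. Their sum was 2566 to 2897 CPM in Phen-DC3 cells and 2935 to 3021 CPM in their controls, against 5980 to 7132 CPM in Braco-19 cells and 5424 to 6577 CPM in theirs. The part of other cells in the results was not tested.

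The responses to the compounds differed past the threshold for 7 genes of 14184 (0.0494%). Nqo1 and Ier3 were higher in response to Phen-DC3 than to Braco-19 (2 genes, 0.0141%). Ifih1, Pappa1, Per1, Ahnak and Anpep were lower (5 genes, 0.0353%). In 5 of these genes (Nqo1, Ier3, Ifih1, Pappa1 and Anpep) the treated libraries lay outside the range of their controls in both experiments and in opposite directions, whereas Per1 and Ahnak moved out of the range in 1 experiment each. Across all genes 22.1% did not overlap between Phen-DC3 libraries and their controls, and 28.1% between Braco-19 libraries and theirs. The share of all genes separated in both experiments and in opposite directions was not counted. The 7 genes were called for their difference in these same libraries, so their separation adds no support. By their own tests, Phen-DC3 changed 1136 genes (8.01%), 311 upward (2.19%) and 825 downward (5.82%). Braco-19 changed 39 genes (0.275%), 24 upward (0.169%) and 15 downward (0.106%). Both counts rested on single libraries. For Phen-DC3 the upward and downward counts were 0 and 0 without Phen-DC3 replicate 1, 1 and 21 without replicate 2, 0 and 3 without replicate 1 of its controls and 10 and 119 without replicate 2 of them, but 1049 and 1604 without Phen-DC3 replicate 3 and 1451 and 1864 without replicate 3 of its controls. For Braco-19 they were 3 and 1 without Braco-19 replicate 2, 1 and 0 without replicate 3, 2 and 1, 11 and 9 and 4 and 2 without replicates 1, 2 and 3 of its controls in that order, and 120 and 33 without Braco-19 replicate 1. Since all groups share 1 estimate of the spread, leaving out replicate 1 or 3 of the Phen-DC3 controls also changed the Braco-19 counts, to 258 and 83 or 65 and 27.

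**Figure D1:**
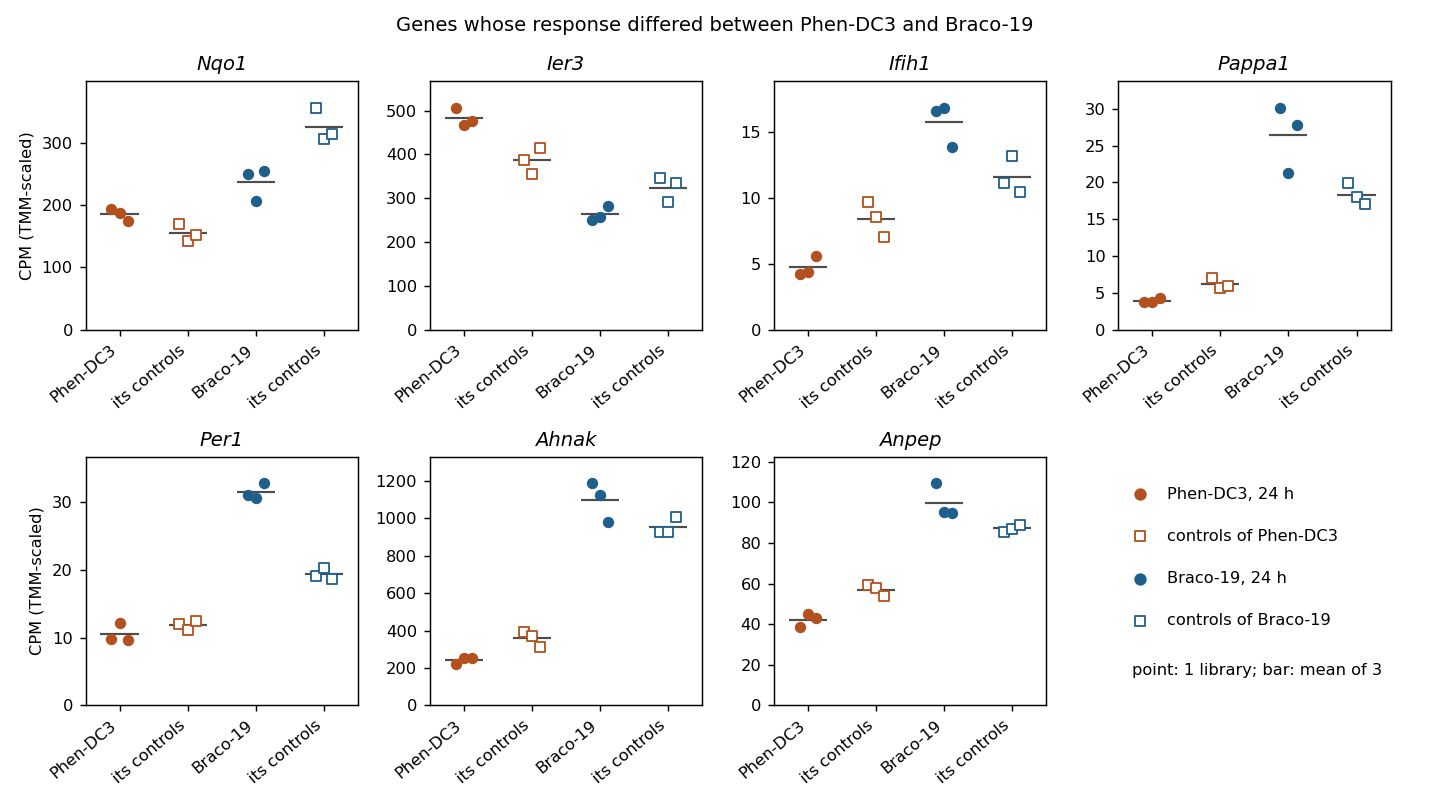
CPM of the 7 genes in each of the 12 libraries (points) with the mean of 3 (bars), for Phen-DC3, its controls, Braco-19 and its controls. Nqo1 and Ier3 lie above the controls under Phen-DC3 and below them under Braco-19, Ifih1, Pappa1 and Anpep the reverse, and the levels of the control groups differ between the experiments.

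Nqo1 encodes NAD(P)H quinone dehydrogenase, a detoxifying enzyme and a standard target of the transcription factor NRF2 (chr19:38422164-38437180, plus strand, in the deposited table, which comes with no build in the sources used here). It stood at 194, 187 and 174 CPM in Phen-DC3 cells, against 169, 143 and 151 CPM in their controls. In Braco-19 cells it stood at 249.4, 207 and 255 CPM, against 356, 306 and 314 CPM in theirs. Neither pair of groups overlapped. The Braco-19 effect was -0.46 ± 0.08 (SE, edgeR adjusted p = 0.0244), while the Phen-DC3 effect of 0.26 ± 0.08 missed the threshold (edgeR adjusted p = 0.0582). The difference was 0.72 ± 0.12 (95% interval 0.47 to 0.96, edgeR adjusted p = 0.0384).

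Ier3, an immediate early gene induced by stress and growth factors (chr20:3438798-3440769, minus strand), was likewise above its controls with Phen-DC3 and below them with Braco-19. Its values were 507, 466 and 477 CPM in Phen-DC3 cells, against 388, 356 and 415 CPM in their controls. The Braco-19 cells had 250, 258 and 283 CPM, against 346, 291 and 334 CPM in their controls. Here the Phen-DC3 effect passed (0.32 ± 0.08, edgeR adjusted p = 0.0208) and the Braco-19 effect did not (-0.30 ± 0.08, edgeR adjusted p = 0.102). Their difference was 0.62 ± 0.11 (95% interval 0.39 to 0.84, edgeR adjusted p = 0.0384).

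Ifih1 encodes MDA5, the cytosolic sensor of long double-stranded RNA that starts the type I interferon response (chr3:48557696-48604097, minus strand). It was at 4.26, 4.39 and 5.58 CPM in Phen-DC3 cells, against 9.72, 8.53 and 7.01 CPM in their controls, which is 69 to 94 counts a library against 120 to 156. Braco-19 cells had 16.6, 16.9 and 13.9 CPM, against 11.1, 13.2 and 10.5 CPM in their controls. Every Phen-DC3 library was below and every Braco-19 library above its controls. Ifih1 fell with Phen-DC3 (-0.83 ± 0.15, edgeR adjusted p = 0.0112), and the Braco-19 effect was 0.45 ± 0.14 (edgeR adjusted p = 0.147). At -1.27 ± 0.21 it had the largest difference among the 7 genes (95% interval -1.71 to -0.83, edgeR adjusted p = 0.0384).

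Per1 encodes a repressor of the circadian clock that is also induced acutely by glucocorticoids and cyclic AMP (chr10:55687050-55695994, plus strand). Phen-DC3 cells had 9.81, 12.1 and 9.68 CPM, overlapping the 11.97, 11.2 and 12.4 CPM of their controls. Braco-19 cells had 31.0, 30.6 and 32.8 CPM, against 19.2, 20.3 and 18.6 CPM in theirs. Per1 rose with Braco-19 (0.70 ± 0.11, edgeR adjusted p = 0.00686), and its Phen-DC3 effect was -0.17 ± 0.11 (edgeR adjusted p = 0.33). The difference was -0.87 ± 0.15 (95% interval -1.19 to -0.55, edgeR adjusted p = 0.0384).

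Pappa1, the pappalysin gene, encodes a secreted protease that cleaves insulin-like growth factor binding proteins (chr5:80920568-81150940, plus strand). Its values were 3.70, 3.75 and 4.34 CPM in Phen-DC3 cells, against 7.04, 5.65 and 5.96 CPM in their controls. They were 30.1, 21.3 and 27.7 CPM in Braco-19 cells, against 19.9, 18.0 and 17.1 CPM in their controls. The groups did not overlap in either experiment. Pappa1 fell with Phen-DC3 (-0.66 ± 0.16, edgeR adjusted p = 0.0222), the Braco-19 effect was 0.52 ± 0.14 (edgeR adjusted p = 0.113), and the difference was -1.18 ± 0.21 (95% interval -1.63 to -0.74, edgeR adjusted p = 0.0391).

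Anpep encodes aminopeptidase N, a cell-surface peptidase (chr1:141561334-141604273, minus strand). Phen-DC3 cells had 38.9, 44.8 and 43.1 CPM, against 59.5, 57.9 and 53.7 CPM in their controls, and Braco-19 cells had 109, 95.2 and 94.8 CPM, against 85.6, 86.9 and 89.1 CPM in theirs. Anpep was below its controls in each Phen-DC3 library and above them in each Braco-19 library. The effects were -0.43 ± 0.08 with Phen-DC3 (edgeR adjusted p = 0.0112) and 0.19 ± 0.08 with Braco-19 (edgeR adjusted p = 0.197), and the difference was -0.63 ± 0.11 (95% interval -0.86 to -0.40, edgeR adjusted p = 0.0384).

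Ahnak, whose length of 17602 bp in the deposited table is the largest of the 7 genes, encodes a giant scaffold protein of the cell cortex (chr1:225184939-225215015, plus strand). It stood at 222, 252 and 255 CPM in Phen-DC3 cells, against 393, 373 and 314 CPM in their controls. In Braco-19 cells it stood at 1187, 1127 and 982 CPM, against 929, 925 and 1007 CPM in theirs, and these groups overlapped. Ahnak fell with Phen-DC3 (-0.57 ± 0.09, edgeR adjusted p = 0.0112), the Braco-19 effect was 0.20 ± 0.09 (edgeR adjusted p = 0.241), and the difference was -0.77 ± 0.13 (95% interval -1.04 to -0.50, edgeR adjusted p = 0.0384).

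The 7 calls were narrow. All 7 kept their direction in every setting tried, and none was called in the fit of all libraries once each library's trend with gene length was removed, although 4 of them (Nqo1, Ier3, Ifih1 and Anpep) then stood at an edgeR adjusted p of 0.0543 and kept most of their size (0.68, 0.57, -1.17 and -0.52). Ahnak came to -0.26 (edgeR adjusted p = 0.6) with that correction. With the correction and 1 library left out, of the 7 genes Ier3 and Nqo1 passed without replicate 1 of the Phen-DC3 controls and Ier3 and Ifih1 without replicate 2 of the Braco-19 controls. No gene was called when any 1 of 6 libraries was left out, namely Phen-DC3 replicate 1 or 2, replicate 2 of its controls, Braco-19 replicate 2, or replicate 1 or 3 of its controls. Without Phen-DC3 replicate 3 there were 11 genes and without replicate 3 of its controls 15, in each case with 6 of the 7 among them. Without replicate 1 of the Phen-DC3 controls only Nqo1 was called, without Braco-19 replicate 1 only Akr1b8, without Braco-19 replicate 3 there were 4 genes and without replicate 2 of the Braco-19 controls 3. DESeq2 called 53 genes and limma with sample weights 303, with all 7 among them each time.

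Apart from these genes, the effects of the compounds tended to have the same sign. Across the 14184 genes the Phen-DC3 effect and the Braco-19 effect had a Spearman correlation of 0.452, and 0.635 over the 9363 genes with a mean log2 CPM of 3 or more. The experiments share no library, but genes share length and abundance and are not independent, so this is a description. After the length correction the values were 0.421 and 0.598. Of the 825 genes that fell with Phen-DC3, 719 had a Braco-19 effect below 0, with a median of -0.17. Of the 311 that rose, 274 had a Braco-19 effect above 0, with a median of 0.18. Of all 14184 tested genes, 7027 had a Braco-19 effect below 0 and 7157 above. With the length correction the counts were 635 of the 825 (median -0.11) and 229 of the 311 (median 0.09). In the other direction, 18 of the 24 genes that rose with Braco-19 had a Phen-DC3 effect above 0 and 14 of the 15 that fell had one below 0, with medians of 0.14 and -0.17.

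**Figure D2:**
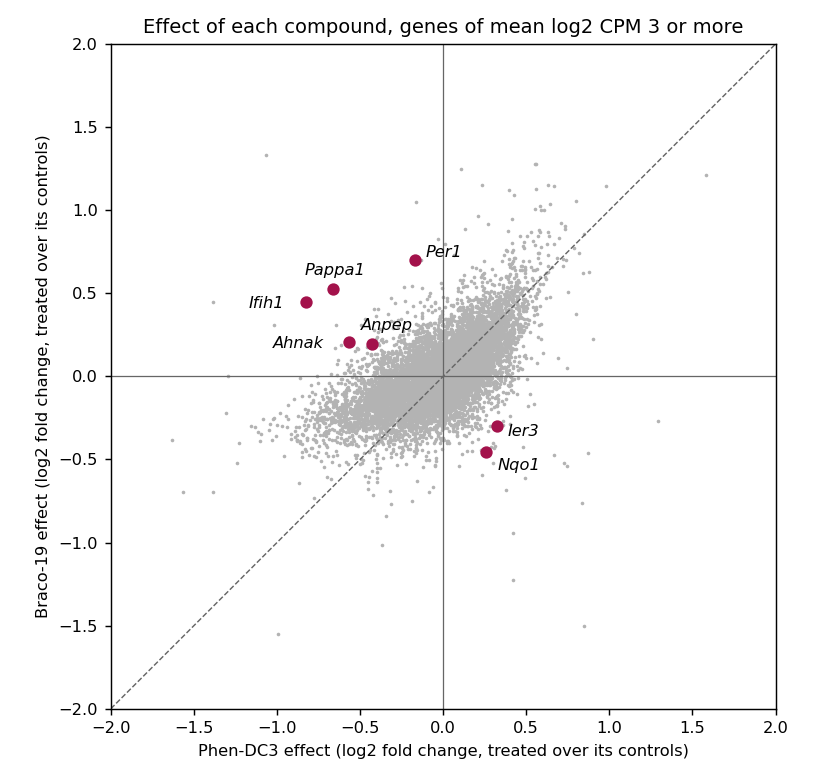
Phen-DC3 effect (x axis) and Braco-19 effect (y axis), both as log2 fold changes over the compound's own controls, for genes of mean log2 CPM 3 or more. 9360 genes lie inside the axes and 3 outside. The cloud runs along the dashed line of equal effects, and the 7 labelled genes lie in the upper left and lower right quadrants.

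Changes past the threshold with each compound were found in 4 genes, all in the same direction with both. They were 0.352% of the 1136 Phen-DC3 genes and 10.3% of the 39 Braco-19 genes, close to the 8.01% of all tested genes that passed with Phen-DC3, and with the length correction 0 genes passed with both. Mgmt, which encodes a DNA repair methyltransferase, rose by 0.36 with Phen-DC3 and by 0.55 with Braco-19. Cyp1b1, a cytochrome P450, had effects of -0.40 and -0.47, Scd, the stearoyl-CoA desaturase, -0.30 and -0.44, and Stil, a gene of centriole duplication, -0.50 and -0.50. Differences between compounds were near 0 in Stil (0.00, 95% interval -0.31 to 0.31) and Cyp1b1 (0.07, 95% interval -0.20 to 0.35), and came to 0.16 and 0.26 with the length correction. No gene passed with both compounds in opposite directions.

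The precision bounds what could be seen. The 95% interval of the difference lay within a 2-fold change either way for 10372 genes (73.1%), and for 9013 of the 9363 better expressed genes (96.3%), where its median half-width was 0.31. At an unadjusted p under 0.05, 1344 genes (9.48%) differed: 470 (3.31%) were higher and 874 (6.16%) lower in response to Phen-DC3 than to Braco-19. These percentages are the background for the gene groups that follow, whose members were counted at this unadjusted level because hardly any passed the adjusted one.

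Among the gene lists examined, the one whose median difference lay farthest from 0 was the interferon response, genes switched on by interferon through STAT and IRF factors that carry antiviral functions. Of 48 tested members, 25 had a Phen-DC3 effect above 0 with a median of 0.05, and 46 had a Braco-19 effect above 0 with a median of 0.42, against medians of -0.01 for Phen-DC3 and 0.00 for Braco-19 over all tested genes. The difference was below 0 in 44 of 48, against 7979 of the 14184 tested genes. Its median was -0.46, against -0.04 over all tested genes. Members with a mean log2 CPM under 3 counted equally, down to -1.24 in Mx1 and -1.79 in Oas1a. Only Ifih1 passed the adjusted test of the difference. At the unadjusted level 17 members were lower and 0 higher in response to Phen-DC3 than to Braco-19.

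The shift stood in every Braco-19 library. The median member lay 0.01, 0.04 and 0.03 above the mean of the Phen-DC3 controls in the 3 Phen-DC3 libraries, and 0.36, 0.44 and 0.32 above the mean of the Braco-19 controls in the 3 Braco-19 libraries. Single control libraries lay between -0.02 and 0.04 in both experiments. Leaving out any 1 of the 12 libraries kept the median difference between -0.50 and -0.39, and the length correction gave -0.41, with 13 members lower at the unadjusted level. The count lower at the unadjusted level was 11 without Braco-19 replicate 2, and between 14 and 19 without any other library.

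Gbp2, an interferon-induced GTPase, stood at 28.02, 29.4 and 31.9 CPM in Phen-DC3 cells, overlapping the 31.5, 29.8 and 29.0 CPM of their controls. It rose with Braco-19 (0.56 ± 0.09, edgeR adjusted p = 0.00686), with 26.4, 27.8 and 26.1 CPM in Braco-19 cells against 17.8, 16.5 and 20.1 CPM in their controls. The difference of -0.58 ± 0.12 missed the threshold (edgeR adjusted p = 0.108). Irf7, a master regulator of interferon genes, had 24.9, 24.5 and 24.4 CPM in Phen-DC3 cells against 23.2, 20.6 and 23.6 CPM in their controls, with no overlap and an effect of 0.13 (edgeR adjusted p = 0.428). It rose with Braco-19 (0.54 ± 0.11, edgeR adjusted p = 0.0343), at 19.6, 23.0 and 21.9 CPM in Braco-19 cells against 15.2, 14.5 and 14.6 CPM in their controls. Stat2, a subunit of the factor that interferon activates, rose with Braco-19 as well (0.40 ± 0.08, edgeR adjusted p = 0.0343), and its difference was -0.49 ± 0.11 (edgeR adjusted p = 0.145). Of all tested genes 0.169% rose with Braco-19, and these 3 were the members that passed with it. None passed without Braco-19 replicate 2 or 3 or without replicate 1 of the Braco-19 controls, 1 without replicate 2 or 3 of those controls, 5 without replicate 3 of the Phen-DC3 controls, 8 without Braco-19 replicate 1 and 10 without replicate 1 of the Phen-DC3 controls. The count was also 0 with the 12 libraries alone and with the replicate number as a block. It was 4 with the length correction, 9 with DESeq2 and 23 with limma with sample weights. With Phen-DC3 Psmb9, an immunoproteasome subunit, rose (0.42, edgeR adjusted p = 0.0415) and Ifih1 fell. No member rose past the threshold with Phen-DC3 under the length correction or with the 12 libraries alone. The same held without replicate 1 or 2 of Phen-DC3 or of its controls.

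**Figure D3:**
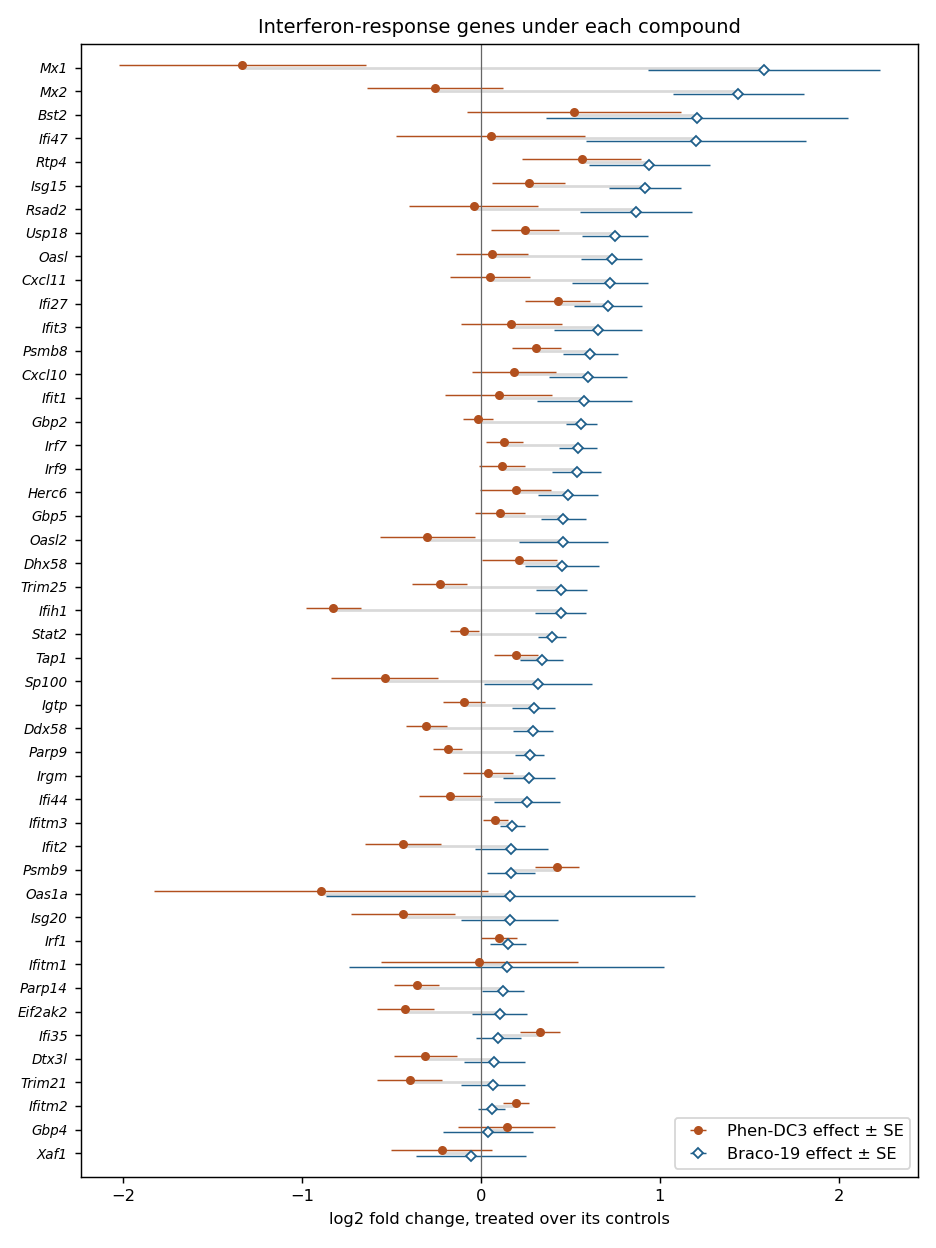
Effects of Phen-DC3 (filled circles) and Braco-19 (open diamonds) on 47 of the 48 interferon-response genes, as log2 fold changes with SE, ordered by the Braco-19 effect. Braco-19 effects lie above 0 in 46 genes, and Phen-DC3 effects scatter on both sides of 0.

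Other members ran the same way without passing. Ddx58, the RNA sensor RIG-I, had effects of -0.30 with Phen-DC3 and 0.29 with Braco-19. Isg15, a ubiquitin-like modifier, had 0.27 and 0.92, Oasl 0.06 and 0.73, and Cxcl10, an interferon-induced chemokine, 0.18 and 0.60. The difference for Cxcl10 was -0.41 (95% interval -1.11 to 0.28), and limma with sample weights gave 0.11. Outside the list, Apol9a rose with Braco-19 (1.15 ± 0.15, edgeR adjusted p = 0.00261), with a difference of -0.92 ± 0.21 (edgeR adjusted p = 0.142). Its count is uncertain, since close paralogs can share reads. Ccl5, a chemokine, rose by 1.26 with Braco-19, with 5.38, 6.30 and 6.70 CPM against 2.49, 2.55 and 2.62 CPM in controls, and Uba7, the activating enzyme of Isg15, rose by 1.27. Apol9a, Ccl5 and Uba7 were picked after their values were seen. For Ccl5 and Uba7 only the Braco-19 effect is given, so they show no difference between the compounds.

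Summed macrophage markers were 1.31 to 1.85 CPM in Phen-DC3 cells and 0.997 to 1.64 CPM in their controls, and 3.77 to 5.15 CPM in Braco-19 cells against 3.38 to 3.55 CPM in theirs. Of the 6 markers 5 stayed under 1 CPM in all 12 libraries, with Ptprc and C1qa at 0, and the sum was mainly Cd68. The part of these cells in the interferon values was not tested. Fewer cells of a type and less RNA per cell cannot be told apart in these bulk samples.

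The promoters show what the members share in sequence. The 300 bases from 250 before to 50 after the start of each gene were taken from RefSeq (GRCr8) for 9667 tested genes and searched on both strands for the core of the interferon-stimulated response element, read as GAAA, any 2 bases and GAAA. It was present in 25 of 38 promoters of the interferon group (65.8%), against 272 of 9640 promoters of tested genes (2.82%) and 3.92% of all promoters in the table. The list was made of genes known to be switched on by interferon. This share is therefore a property of the list and does not depend on the responses measured here. Of the 5 called genes with a promoter in the table, Ifih1 and Per1 held it. The promoters of Ifih1 (chr3:67683919-67684218, minus strand), Gbp2 (chr2:234005477-234005776, plus strand) and Irf7 (chr1:205799974-205800273, minus strand) are printed in the direction of the gene to show the match in capitals, which reads on the gene's strand in Ifih1 and as its reverse complement in Gbp2 and Irf7. A match is a run of letters and not a shown binding site.
Ifih1: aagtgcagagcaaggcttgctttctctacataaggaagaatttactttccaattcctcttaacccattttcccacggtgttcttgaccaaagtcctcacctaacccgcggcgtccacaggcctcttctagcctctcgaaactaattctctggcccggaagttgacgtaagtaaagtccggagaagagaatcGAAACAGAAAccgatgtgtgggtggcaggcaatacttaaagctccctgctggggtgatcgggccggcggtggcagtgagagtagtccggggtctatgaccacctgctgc
Gbp2: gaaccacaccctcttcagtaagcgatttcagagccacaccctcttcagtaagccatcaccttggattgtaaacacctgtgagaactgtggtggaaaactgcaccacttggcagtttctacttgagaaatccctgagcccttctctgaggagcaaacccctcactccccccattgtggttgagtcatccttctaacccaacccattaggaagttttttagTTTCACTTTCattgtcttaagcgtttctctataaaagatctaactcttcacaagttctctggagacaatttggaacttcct
Irf7: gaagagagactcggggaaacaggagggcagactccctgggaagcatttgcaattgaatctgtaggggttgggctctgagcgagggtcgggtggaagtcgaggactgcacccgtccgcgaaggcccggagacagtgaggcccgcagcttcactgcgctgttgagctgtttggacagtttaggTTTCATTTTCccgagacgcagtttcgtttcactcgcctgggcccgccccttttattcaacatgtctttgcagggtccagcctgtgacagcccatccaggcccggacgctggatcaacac

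Genes of oxidative defence under NRF2 had differences mostly above 0. NRF2 binds promoters of detoxifying and glutathione enzymes when its inhibitor Keap1 is modified. Of 31 tested members, 24 had a difference above 0, with a median of 0.12, against 6205 of the 14184 tested genes. Other groups had medians of similar size, such as 0.10 in proteasome subunits, 0.10 in ER chaperones and 0.08 in housekeeping genes. Nqo1 passed the adjusted test, and 4 were higher and 1 lower at the unadjusted level. By the compounds' own tests, Phen-DC3 raised Taldo1 and lowered Abcc1 and Abcc4, none of which passed with the length correction, and Braco-19 lowered Nqo1 and Gclc. Among all tested genes these shares were 2.19%, 5.82% and 0.106% in that order. The Braco-19 count was 0 without Braco-19 replicate 2 or 3 or with the 12 libraries alone, and 3 without replicate 1 of the Phen-DC3 controls.

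Gclc, the catalytic subunit of the first enzyme of glutathione synthesis, stood at 34.7, 35.7 and 42.2 CPM in Phen-DC3 cells, overlapping the 45.0, 37.1 and 38.0 CPM of their controls. In Braco-19 cells it stood at 68.01, 66.7 and 65.8 CPM against 91.5, 83.6 and 99.2 CPM in their controls (-0.45 ± 0.09, edgeR adjusted p = 0.0343). Gsr, glutathione reductase, had a difference of 0.28 (edgeR adjusted p = 0.348), with effects of 0.13 and -0.14. Abcc1, an exporter of conjugates, ran against the group at -0.50 (edgeR adjusted p = 0.337). Hmox1, the heme oxygenase that is another NRF2 target, had a difference of 0.05 (95% interval -0.16 to 0.27), and its sign turned without replicate 2 of the Braco-19 controls.

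Cholesterol synthesis genes had Braco-19 effects below 0 in most members. This pathway, driven by SREBP factors, runs from acetyl-CoA to cholesterol. The list also holds genes of fatty acid synthesis and desaturation. Of 32 tested members 21 had a Phen-DC3 effect below 0 (median -0.06) and 25 a Braco-19 effect below 0 (median -0.15), and the difference was above 0 in 22 (median 0.11, and 0.20 after the length correction). At the unadjusted level 7 were higher and 2 lower (12 and 1 with the correction), against 3.31% and 6.16% of all tested genes. The correction turned the Phen-DC3 median to 0.05 and left the Braco-19 median at -0.16. Phen-DC3 lowered 4 members (Scd, Fads1, Acaca and Fasn), against 5.82% of all tested genes, and 0 with the correction. All 4 are genes of fatty acid synthesis or desaturation. Braco-19 lowered 3: Cyp51, lanosterol demethylase (-0.36 ± 0.06, edgeR adjusted p = 0.012), Sc5d, sterol desaturase (-0.45 ± 0.08, edgeR adjusted p = 0.0169), and Scd. Of all tested genes 0.106% fell with Braco-19. The count of 3 was 1 without Braco-19 replicate 2, and 0 without Braco-19 replicate 3 or with the 12 libraries alone. It was 5 without replicate 1 of the Phen-DC3 controls. For Sc5d the values were 97.0, 87.8 and 105 CPM in Phen-DC3 cells against 102, 106 and 91.2 CPM in controls, and 79.9, 78.0 and 75.0 CPM in Braco-19 cells against 104, 109 and 105 CPM in controls. Its difference was 0.40 ± 0.11 (edgeR adjusted p = 0.258). Fads1, a fatty acid desaturase in the same list, ran the other way at -0.43 ± 0.09 (edgeR adjusted p = 0.109).

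Most DNA replication genes had a higher response to Phen-DC3 than to Braco-19. The difference was above 0 in 39 of 47 tested members, with a median of 0.17 (0.19 after the length correction), and 8 were higher and 1 lower at the unadjusted level, with none past the adjusted threshold. The median Phen-DC3 effect was 0.11 and the median Braco-19 effect -0.10. Ccne1, cyclin E, which opens S phase, stood at 29.3, 31.2 and 26.6 CPM in Phen-DC3 cells against 23.3, 20.01 and 24.5 CPM in controls, and at 21.5, 21.1 and 21.9 CPM in Braco-19 cells against 26.2, 24.9 and 26.8 CPM in controls. Neither pair overlapped, and the difference was 0.63 ± 0.12 (edgeR adjusted p = 0.0746). Prim1, a primase subunit, had a difference of 0.38 (edgeR adjusted p = 0.332) and Orc6, of the origin recognition complex, 0.56 (edgeR adjusted p = 0.355). Outside this list, for Top2a, topoisomerase II, effects were -0.47 with Phen-DC3 and -0.41 with Braco-19, and the difference of -0.06 (95% interval -0.40 to 0.29) turned to 0.13 with the length correction.

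Chromatin remodellers and histone modifiers had the most members lower in response to Phen-DC3 than to Braco-19, and most of them are long genes. Phen-DC3 lowered 29 of 75 tested members, against 5.82% of all tested genes, and Braco-19 none, and the median difference was -0.29, with 27 lower and 1 higher at the unadjusted level. In this list 47 of the 75 genes are longer than 5000 bp. After the length correction the median difference was -0.07 and Phen-DC3 lowered 2 members. Smarca4, the BRG1 ATPase, had a difference of -0.43 ± 0.10 (edgeR adjusted p = 0.142) that became -0.25 with the correction. Ep400, another remodelling ATPase, had -0.64 ± 0.16 (edgeR adjusted p = 0.212), becoming -0.26. The Phen-DC3 count also rested on single libraries, since 0 members passed with that compound without Phen-DC3 replicate 1 or without replicate 1 of its controls, 2 without Phen-DC3 replicate 2, 7 without replicate 2 of its controls, and 43 without replicate 3 of its controls.

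The length trend ran through the whole table. Genes over 10000 bp (137 genes) had median effects of -0.49 with Phen-DC3 and -0.11 with Braco-19, and genes up to 1000 bp (2056 genes) 0.21 and 0.14. The median difference between the compounds was near 0 in short genes (median 0.03) and -0.40 in the longest. Across genes the Spearman correlation of the effect with length was -0.443 for Phen-DC3, -0.225 for Braco-19 and -0.268 for the difference, and 0.00773, 0.00391 and 0.0208 once corrected. The correction left 47 genes past the threshold with Phen-DC3 (0.331%) and 47 with Braco-19 (0.331%). The source of the trend was not tested.

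**Figure D4:**
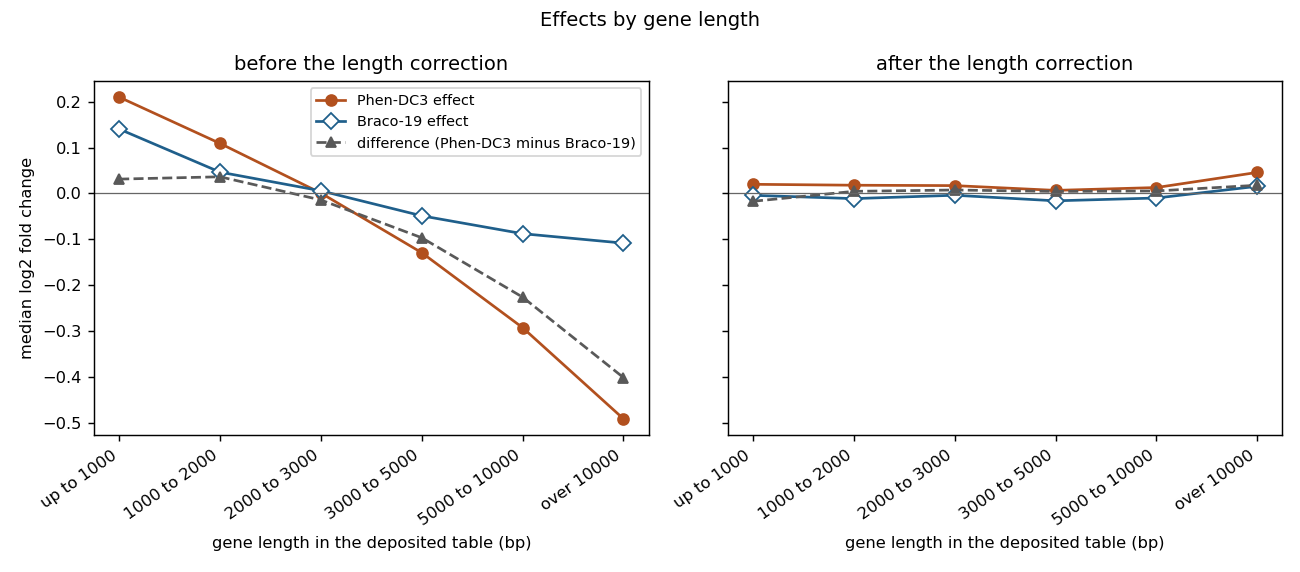
Median log2 effect of Phen-DC3, of Braco-19 and of their difference by gene length in the deposited table (bp), before (left) and after (right) removing each library's trend with length. Before the correction the Phen-DC3 line drops to -0.49 in genes over 10000 bp and the Braco-19 line to -0.11, and after it all lines stay near 0.

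Groups of short mRNAs had medians above 0 with both compounds, except the mRNAs of the mitochondrial chromosome. Phen-DC3 raised 2.19% of all tested genes, which is the background for the counts here. Cytosolic ribosomal protein genes had medians of 0.33 with Phen-DC3 and 0.27 with Braco-19 (74 tested, 18 raised by Phen-DC3 and 0 by Braco-19), and the median difference was 0.05. For nuclear oxidative phosphorylation subunits the medians were 0.32 and 0.24 (72 tested, 25 raised by Phen-DC3 and 0 by Braco-19), with a median difference of 0.06. The 13 mRNAs of the mitochondrial chromosome had medians of -0.45 and -0.41, and 1 of them, Mt-nd5, fell with Phen-DC3, against 5.82% of all tested genes. Proteasome subunits had medians of 0.16 with Phen-DC3 and 0.07 with Braco-19, with 9 of 31 raised by Phen-DC3. Their difference was above 0 in 26 of 31 (median 0.10), with 5 higher and 0 lower at the unadjusted level. With the length correction Phen-DC3 raised 0 members of each of the ribosomal, oxidative phosphorylation and proteasome groups, and the medians with Phen-DC3 and Braco-19 came to 0.16 and 0.13, 0.15 and 0.13, and 0.10 and 0.01 in that order. The 3 counts were also 0 without Phen-DC3 replicate 1 or without replicate 1 of its controls, and at most 1 without replicate 2 of either group. Without replicate 3 of the Phen-DC3 controls they were 39, 47 and 13. Psmb3, a core subunit, rose by 0.35 with Phen-DC3, at 302, 260 and 262 CPM against 215, 212 and 221 CPM in controls, and overlapped its controls with Braco-19.

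**Figure D5:**
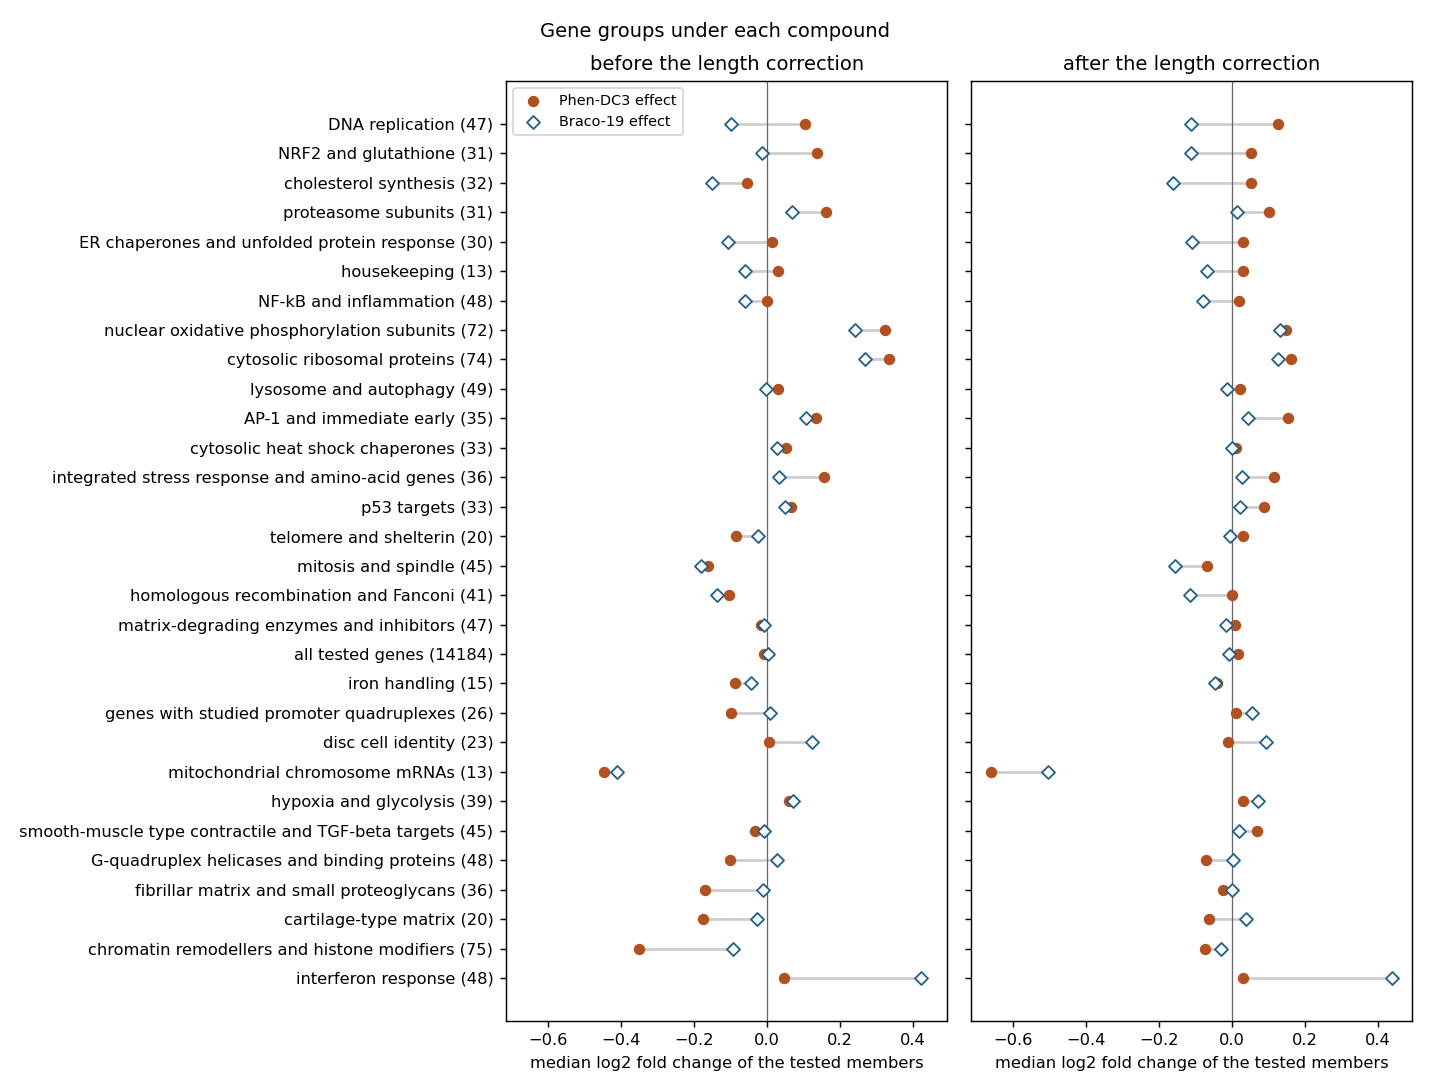
Median effect of Phen-DC3 (filled circles) and of Braco-19 (open diamonds) over the tested members of each gene group apart from the cell-type markers, with the number of members in brackets, before (left) and after (right) the length correction, ordered by the median difference. The interferon group has the widest gap in both panels, at 0.05 and 0.42 before the correction, and the gap of the chromatin group narrows after it.

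Genes tied to G-quadruplexes themselves gave no call between the compounds. Of 48 helicases and binding proteins, 8 fell with Phen-DC3, against 5.82% of all tested genes, and 0 with Braco-19, the median difference was -0.11 (-0.07 after the length correction), and none passed the test of the difference. At the unadjusted level 6 were lower and 0 higher (5 and 1 with the length correction), against 6.16% and 3.31% of all tested genes. The count of 8 was 0 with the length correction, without Phen-DC3 replicate 1 or 2 or without replicate 1 of its controls, 1 without replicate 2 of its controls, and 13 and 12 without replicate 3 of Phen-DC3 and of its controls. Atrx, a remodeller that binds repetitive guanine-rich DNA, stood at 7.04, 7.38 and 9.74 CPM in Phen-DC3 cells against 15.7, 20.4 and 13.0 CPM in controls, and at 51.4, 51.5 and 53.1 CPM in Braco-19 cells against 70.3, 57.2 and 59.1 CPM in controls. With each compound it lay below the range of its controls, and the difference of -0.77 ± 0.28 (edgeR adjusted p = 0.409) became -0.36 with the length correction. Among 26 genes whose promoter quadruplexes have been studied, 4 fell with Phen-DC3 (0 with the length correction), against 5.82% of all tested genes, and 0 with Braco-19. The count of 4 was 0 without Phen-DC3 replicate 1 or 2, and 6 without replicate 3 of its controls. At the unadjusted level 4 of the 26 were lower and 0 higher in response to Phen-DC3 than to Braco-19. Myc, the best known of them, had a difference of 0.21 (95% interval -0.07 to 0.49) and Vegfa -0.16 (95% interval -0.42 to 0.11).

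A run of 4 stretches of at least 3 guanines with loops of 1 to 7 bases, searched on both strands of the RefSeq promoters, was present in 25.2% of the promoters of tested genes and 16.6% of all. It was found in 33.5% of the 633 promoters of genes lower in response to Phen-DC3 than to Braco-19 at the unadjusted level, and in 22.3% of the 318 of genes higher. Genes with the motif had a median difference of -0.05 and those without it -0.03, and after the length correction 0.00 and 0.01. Among the called genes Ahnak held it, as cytosine runs on the gene's strand, and its promoter (chr1:215311104-215311403, plus strand, GRCr8) is printed with the stretch in capitals.
Ahnak: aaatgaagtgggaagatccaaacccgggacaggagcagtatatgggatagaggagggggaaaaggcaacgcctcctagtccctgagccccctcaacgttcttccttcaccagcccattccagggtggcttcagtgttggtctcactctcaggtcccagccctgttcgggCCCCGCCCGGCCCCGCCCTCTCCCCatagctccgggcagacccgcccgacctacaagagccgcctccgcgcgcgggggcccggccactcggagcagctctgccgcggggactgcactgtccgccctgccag

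No matrix gene of the disc passed the test of the difference. Of 36 fibrillar matrix and small proteoglycan genes, 9 fell with Phen-DC3, against 5.82% of all tested genes. The lysyl oxidase Loxl3 rose with Braco-19, as did 0.169% of all tested genes. The median difference was -0.15, and -0.04 after the length correction. At the unadjusted level 11 were lower and 0 higher in response to Phen-DC3 than to Braco-19 (4 and 0 with the correction). Of all tested genes 6.16% were lower and 3.31% higher. Of 20 cartilage-type matrix genes 4 were lower and 0 higher (2 and 0 with the correction). The count of 9 was 0 with that correction, without Phen-DC3 replicate 1 or without replicate 1 of its controls, 1 without Phen-DC3 replicate 2 and 5 without replicate 2 of its controls. Sox9, the master factor of cartilage genes, stood at 4.94, 5.10 and 6.36 CPM in Phen-DC3 cells against 6.17, 7.43 and 7.07 CPM in controls, and at 20.8, 18.5 and 18.9 CPM in Braco-19 cells against 13.2, 15.6 and 16.0 CPM in controls. Its difference was -0.71 ± 0.20 (95% interval -1.13 to -0.29, edgeR adjusted p = 0.274). Col2a1, type II collagen, had a difference of -0.19 (95% interval -0.64 to 0.25), and Acan, near the detection limit, 1.32 (95% interval -0.46 to 3.11). Of the matrix-degrading enzymes, Mmp3 had a difference of 0.25 (95% interval 0.01 to 0.49), Mmp13 0.31 (95% interval -0.36 to 0.97) and Adamts5 -0.32 (95% interval -0.58 to -0.05), none past the adjusted threshold. Plat, tissue plasminogen activator, had a Phen-DC3 effect of -0.05, fell with Braco-19 (-0.54 ± 0.09, edgeR adjusted p = 0.0157), and differed by 0.49 ± 0.13 (edgeR adjusted p = 0.258).

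Inflammatory and damage genes were mixed. In the NF-kB group of 48, 8 genes were higher and 5 lower in response to Phen-DC3 than to Braco-19 at the unadjusted level. None passed the adjusted test of the difference. Ccl20, a chemokine, had a Phen-DC3 effect of -0.06 and fell with Braco-19 (-0.67 ± 0.11, edgeR adjusted p = 0.0111), at 31.4, 24.6 and 28.8 CPM in Braco-19 cells against 49.7, 39.7 and 45.3 CPM in controls. Cxcl1 rose with Phen-DC3 (0.24, edgeR adjusted p = 0.0441) and had a Braco-19 effect of -0.18. Of the NF-kB group 2 genes rose with Phen-DC3, against 2.19% of all tested genes. That count was 0 with the length correction, with the 12 libraries alone, or without replicate 1 or 2 of Phen-DC3 or its controls. Differences were 0.30 (95% interval 0.04 to 0.55) for Ccl2 and 0.16 (95% interval -0.48 to 0.79) for Il6. Cdkn1a, the p53 target p21, stood at 376, 373 and 315 CPM in Phen-DC3 cells, against 272, 289 and 315 CPM in their controls, and at 270, 295 and 299 CPM in Braco-19 cells, against 245, 246 and 257 CPM in theirs. Its effects were 0.28 with Phen-DC3 (edgeR adjusted p = 0.0261) and 0.21 with Braco-19 (edgeR adjusted p = 0.158), with a difference of 0.07 (95% interval -0.14 to 0.28). Among the 33 tested p53 targets, 2 rose with Phen-DC3, and 0 in each of the settings that left 0 in the NF-kB group. The p53 regulator Mdm2 had a difference of 0.07 (95% interval -0.17 to 0.32), and Hspa5, the main chaperone of the endoplasmic reticulum, 0.12 (95% interval -0.06 to 0.29).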

How the data were processed

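Whole-number counts per gene were deposited by the authors for 18 libraries and 33898 genes. Per the submitters' processing notes, CASAVA, HISAT2 and featureCounts 1.5.0-p3 were used. Their settings, the genome build and the use of strand in counting are unknown: not given in the sources used here.

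From these counts, 14184 genes were kept by edgeR's filterByExpr by group and fitted with edgeR 4.0.16 (R 4.3.3) in a quasi-likelihood model with TMM scaling and 1 mean for each of the 6 groups, which left 12 residual degrees of freedom. Contrasts were each compound minus its controls, and the difference between these effects. SEs were derived from the F statistic, and 95% intervals from the same fit. The script was tested on simulated counts with known fold changes. The length correction fitted a lowess trend (span 0.5) on log2 gene length in each library. The values fitted were deviations of log2 CPM from the gene's mean over the libraries. The trends, centred within each gene, entered the model as offsets. Alternatives were DESeq2 1.42.0, limma 3.58.1 (voom with sample weights), other scalings and filters, the 12 libraries alone, a replicate block, and leaving out each library.

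Genes were named by adjusted p and size, plus 17 listed in advance and, for each gene group, the 3 members of smallest p, and list examples beyond these were chosen after their values were seen. The 34 gene lists held 1217 symbols, of which 37 could not be matched and 12 were matched through an older name. The comparison and all lists were chosen with earlier results of these data known. 1 member of the interferon list is not reported here by name.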

Additional observations from a re-analysis of the deposited data

How the results depend on the processing

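The limits are few libraries, controls that differ between the experiments, unknown doses, and a trend of the effects with gene length. Genes higher and lower in response to Phen-DC3 than to Braco-19 numbered 2 and 5 by edgeR's quasi-likelihood test. They numbered 21 and 32 with DESeq2, 88 and 215 with limma and sample weights, 0 and 0 with the 12 libraries alone (lowest adjusted p 0.1145), 0 and 0 with the length correction, and 2 and 2 with RLE factors. For Phen-DC3 alone the counts higher and lower were 836 and 1270 with DESeq2, 2267 and 2439 with limma, 22 and 25 with the length correction, and 70 and 560 with the 12 libraries. For Braco-19 alone they were 214 and 145 with DESeq2, 934 and 795 with limma, and 2 and 1 with the 12 libraries.

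With the replicate number as a block, 1 gene was higher (Nfs1) and 0 lower for the difference, 1 and 0 for Phen-DC3, and 1 and 1 for Braco-19. With the block and the length correction together these were 1 and 0, 1 and 0, and 3 and 4, and 3116 genes were lower in the controls of Phen-DC3 than in those of Braco-19. Deviations of same-numbered libraries correlated at -0.342, -0.124 and -0.576 for Phen-DC3 and at 0.133, 0.191 and 0.000114 for Braco-19. With 3 libraries a group these values cannot settle whether the numbers pair the libraries. The loss of calls under the block says nothing of the size of an effect.

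Leaving out each library in turn, with and without the length correction, gave 0 to 3 genes higher and 0 to 12 lower for the difference, 0 to 1451 and 0 to 1864 for Phen-DC3, and 1 to 258 and 0 to 125 for Braco-19. Among the genes followed one by one through the settings, which include the 7 called ones, signs turned in Cxcl10 (0.1137 with limma), Top2a (0.1296 with the length correction and 0.1237 with the block as well), and, on leaving out a library, Top2a (-0.2191 to 0.2322), Vegfa (-0.2421 to 0.04477), Col2a1 (-0.325 to 0.1542), Il6 (-0.08456 to 0.409), Mdm2 (-0.0092 to 0.1921) and Hmox1 (-0.03181 to 0.1433), none of them among the 7. The other named genes were not followed in this way. The cause was not tested. Sox9 and Atrx were called by limma (adjusted p = 0.032 and 0.027) and by no other setting tried.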
